A study of Mus musculus with 10 samples.

Results

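The 7 genes described here encode the gap junction proteins Gja1 (Cx43), Gja3 (Cx46), Gja4 (Cx37), Gja5 (Cx40), Gjb2 (Cx26) and Gjc1 (Cx45) and the channel protein pannexin 1 (Panx1). They are 7 of the 54446 genes in the count table and 7 of the 23 connexin and pannexin genes annotated there. Their RNA was measured in cultured primary smooth muscle cells from mouse aorta, in 5 wild type libraries (WT) and 5 libraries of the genotype Kit W/Wv (WWv). According to the labels, collagenase freed the cells from the aortas of 5 mice of each genotype, and all were cultured to passage 2. Kit encodes c-Kit, the receptor for stem cell factor; W is a splice mutation that removes the membrane-spanning part, Wv is a missense change in the kinase domain, and a mouse with both keeps weak signalling. The stated purpose was to see which genes differ in vascular smooth muscle without c-Kit signalling. The mice carried both alleles in every tissue, and the sources used here do not give their age, sex, strain background or litter. The titles only number the libraries, so where they did not come from separate mice the p-values would measure technical spread alone. The 7 genes were chosen from results of this WWv against WT comparison, so their own differences between the groups are given as a description, and no p-value is attached to them.

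Connexins assemble as rings into hemichannels, and hemichannels of adjoining cells dock into gap junction channels that pass ions, calcium, cyclic nucleotides and other small molecules. In the artery wall Cx43 joins smooth muscle cells, Cx45 is a smooth muscle connexin too, and Cx37 and Cx40 are known mainly from the endothelium and from the contacts between endothelium and muscle. Cx46 is best known from lens fibre cells and Cx26 from the inner ear and epithelia. Pannexins form channels of their own in the plasma membrane, through which ATP leaves the cell; outside, ATP and its breakdown product adenosine act on purinergic receptors, which set arterial tone.

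In WWv cells Gja1 was 1.63-fold lower and Gja3 4.22-fold higher than in WT cells, and in both genes the groups did not overlap. Gjc1 was 1.15-fold higher with overlapping groups. Gja4, Gja5, Gjb2 and Panx1 did not pass the threshold, with log2 fold changes from 0.04 to 0.61. All 7 genes passed the filter on low counts. The threshold was an adjusted p under 0.05 (Benjamini-Hochberg, over 15181 genes) in edgeR's quasi-likelihood test, and genes that pass it are said to be called. By that rule 3 of the 7 were called, against 28.2% of all tested genes. Of the 3, 2 were higher in WWv, as were 12.8% of all tested genes, and 1 was lower, as were 15.4%. The 2 genes whose groups did not overlap stand beside 15.9% of all tested genes. Since this contrast chose the genes, nothing is read from those shares. The median log2 fold change was 0.19 over the 7 and -0.01 over all tested genes.

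The libraries held 42040255 to 53863661 counts. Kit stood at 3.19, 4.92, 4.07, 4.40 and 4.02 CPM (counts-per-million, scaled for library composition) in WT 1 to 5 and at 2.09, 0.929, 1.71, 3.01 and 2.25 CPM in WWv 1 to 5, with no overlap of the groups (log2 fold change -1.04 ± 0.25 SE, edgeR adjusted p = 0.0122). Of 8 smooth muscle markers 6 rose in WWv (Acta2, Myh11, Tagln, Cnn1, Lmod1 and Myocd; 12.8% of all tested genes were called higher), and the summed CPM of the 8 ran from 9955 to 13019 in WT and from 16764 to 20150 in WWv. WT 2 stood apart: its score on principal component 1 (52.5% of the variance) was 20.2, among the WWv libraries (11.5 to 33.4), while the other WT libraries lay at -51.1 to -29.1. On component 2 (17.3%) WT 2 lay at -42.9, outside the range of all other libraries of both groups (-20.2 to 23.1). The fit called 1940 genes higher and 2334 lower, and without WT 2 it called 7127 of 15423 tested genes in all. With library sizes as the only scaling the split was 983 higher and 3599 lower. In bulk RNA, fewer cells of a type and less RNA per cell cannot be told apart.

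The DNA just before the start of Gja1 and Gja3, the 2 members whose groups did not overlap, is shown with that of Gjb2, which lies beside Gja3 on chromosome 14 and did not pass the threshold. The sequences are RefSeq's on GRCm38.p6, 5′ to 3′ on the strand of the gene, and end where the first exon begins in RefSeq or GENCODE, whichever comes earlier. For Gja1 this is chr10:56377050-56377299 on the plus strand, for Gja3 chr14:57058101-57058280 and for Gjb2 chr14:57104703-57104952, both on the minus strand. Capitals mark an AP-1 site (TGANTCA) in Gja1, a TATA box (TATAAA) read on the other strand in Gja3, and GC boxes (GGGCGG), 1 on each strand, in Gjb2.
Gja1: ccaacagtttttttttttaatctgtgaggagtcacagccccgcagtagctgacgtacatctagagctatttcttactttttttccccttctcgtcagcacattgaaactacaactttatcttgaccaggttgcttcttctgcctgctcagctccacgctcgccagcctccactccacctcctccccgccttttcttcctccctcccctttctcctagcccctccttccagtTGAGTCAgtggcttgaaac
Gja3: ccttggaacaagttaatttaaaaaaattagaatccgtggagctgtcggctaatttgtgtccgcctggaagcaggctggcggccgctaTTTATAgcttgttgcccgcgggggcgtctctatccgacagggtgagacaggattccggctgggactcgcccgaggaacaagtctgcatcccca
Gjb2: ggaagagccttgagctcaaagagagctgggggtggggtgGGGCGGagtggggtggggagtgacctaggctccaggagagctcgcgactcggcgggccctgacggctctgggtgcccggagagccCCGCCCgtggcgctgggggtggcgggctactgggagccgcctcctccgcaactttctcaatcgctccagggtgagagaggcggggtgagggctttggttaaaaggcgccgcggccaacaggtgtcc
The AP-1 match of Gja1 lies 19 bases before the RefSeq start, and 7.81% of the 32851 promoter windows of 300 bases in the RefSeq table hold that motif, which reads nearly the same on both strands and was counted once. The TATA match of Gja3 lies 163 bases before the RefSeq start (13.6% of windows hold the motif), and the GC boxes of Gjb2 lie 211 and 126 bases before it (35.7%). The search covered both strands and also included the CCAAT box (CCAAT, in 37.4% of windows), the core T-box motif (TCACACC, in 3.98%) and the CArG box of smooth muscle genes (1.63%), none of which is in the windows of these 3 genes. The Gja3 window also holds a GC box, 20 bases after the start and so not shown. The share of G and C was taken over the full windows of 300 bases, which hold more bases than are shown. It was 47.7% for Gja1, 63.3% for Gja3 and 70.0% for Gjb2, against a median of 52.7% over all windows. RefSeq gives Gja3 another start, at 57057723, whose window lies within the annotated gene, has 76.0% G and C and holds none of the motifs searched. Windows were found for 6 of the 7 members. In the other 3, Gja4 and Gja5 each hold a GC box and Panx1 a CCAAT box. Each match is a match of letters and was not tested as a binding site. Of the factors known to bind the AP-1 motif, Jun stood at 73.4 ± 18.6 CPM in WT and 87.6 ± 9.87 CPM in WWv (SD, n = 5 each; adjusted p = 0.215, edgeR) and Fos at 43.6 ± 14.8 and 51.0 ± 20.8 CPM (adjusted p = 0.604, edgeR).

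Gja1 encodes Cx43, the main connexin of cultured smooth muscle (ENSMUSG00000050953.10, chromosome 10, 56377330 to 56402513, plus strand). It stood at 146, 95.7, 111, 130 and 93.9 CPM in WT 1 to 5. The WWv libraries 1 to 5 gave 74.7, 69.6, 63.4, 71.6 and 74.0 CPM. The lowest WT library lay above the highest WWv library, and the WT libraries were the more spread, with a mean of 115 ± 22.5 CPM against 70.7 ± 4.53 CPM (SD, n = 5 each). The log2 fold change was -0.71 ± 0.12 (SE), or 1.63-fold lower. Leaving out each library in turn gave -0.77 to -0.61. The call was kept in all 10 of these fits, which is a description, since this contrast chose the gene. Its direction was the opposite of that of the 6 smooth muscle markers that rose. Markers of fibroblasts moved with it: of 8 such genes 4 fell and 1 rose (62.5% called, against 28.2% of all tested genes, of which 15.4% were lower). Lum, a matrix proteoglycan gene, fell by 4.02 ± 0.66 on the log2 scale (edgeR adjusted p = 0.00209), Dpt by 2.00 ± 0.27 (adjusted p = 0.000858) and Dcn by 1.76 ± 0.48 (adjusted p = 0.0206), while Col15a1 rose by 1.09 ± 0.34 (adjusted p = 0.0339). The summed CPM of the 8 was 415 to 567 in WT and 312 to 361 in WWv, without overlap, and WT 2 had the lowest WT sum. Lum stood at 2.63 CPM in WT 2, 23.2 to 49.7 CPM in the remaining WT libraries and 1.10 to 3.23 CPM in WWv, so WT 2 lay within the WWv range. None of the 8 was at 0 in all libraries, and Clec3b stayed under 1 CPM in every one. The part of fibroblasts in the difference of Gja1 was not tested. Without WT 2, whose 95.7 CPM is the second lowest WT value, Gja1 stood at 120 ± 22.7 CPM in the other WT libraries and the log2 fold change was -0.76 ± 0.11.

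Gjc1 encodes Cx45, which can form mixed channels with Cx43 (ENSMUSG00000034520.14, chromosome 11, 102799579 to 102819700, minus strand). It stood at 19.0, 21.8, 18.5, 17.6 and 18.0 CPM in WT 1 to 5. The WWv libraries gave 21.0, 22.0, 21.8, 23.1 and 21.5 CPM. Only WT 2 reached the WWv range; the other 4 WT libraries lay below every WWv library. The means were 19.0 ± 1.65 and 21.9 ± 0.767 CPM, and the log2 fold change was 0.21 ± 0.06. This small difference sat at the edge of the threshold: with each library left out in turn it was called in 2 of 10 fits, without WT 2 (0.26) and without WWv 1 (0.22). With library sizes as the only scaling it was 0.12 and not called.

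**Figure D1:**
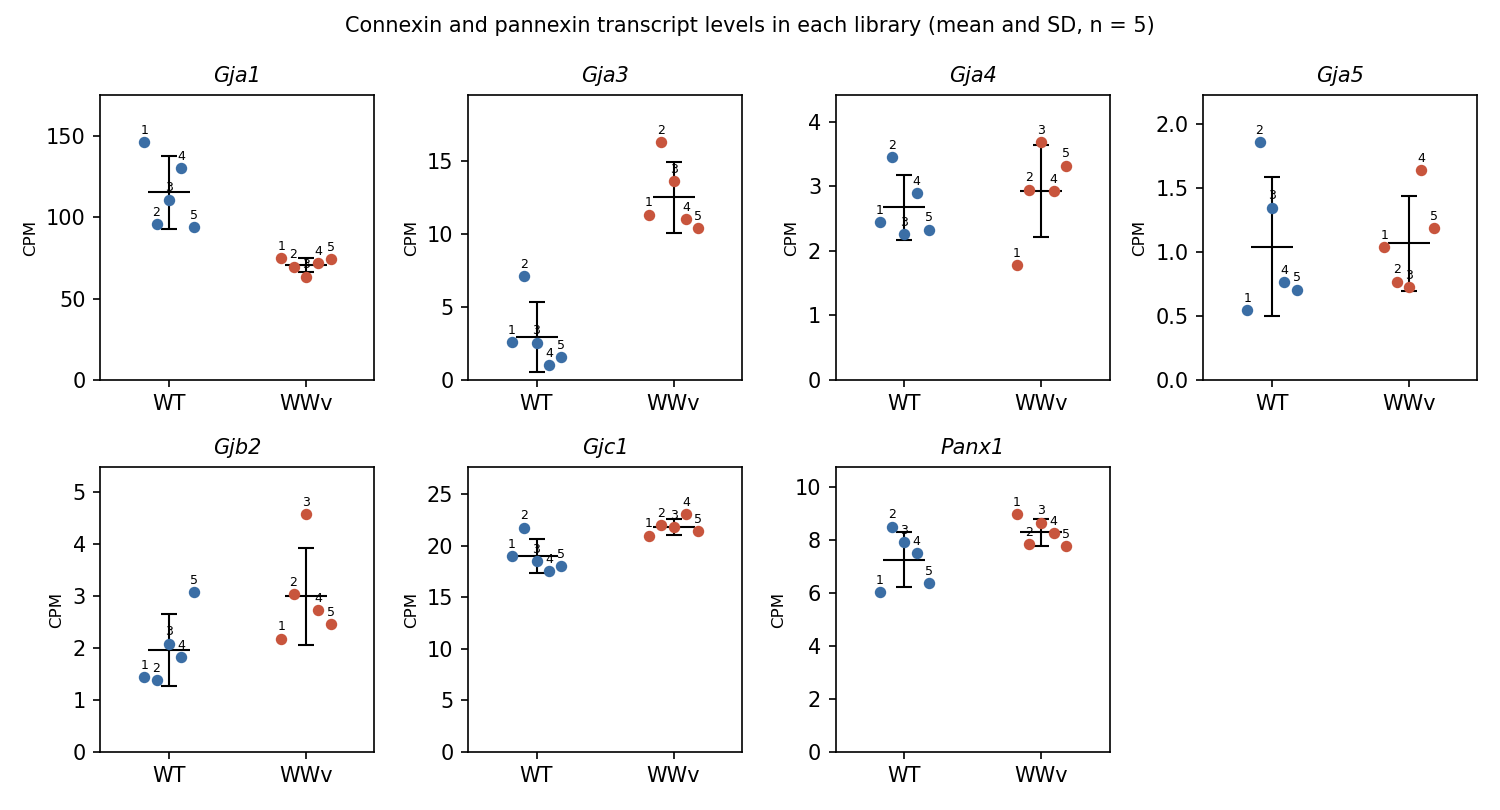
Level of each of the 7 members in CPM (vertical axis, from 0, a scale of its own in each panel) in the 5 WT and 5 WWv libraries (points, numbered by replicate), with group means and SDs (bars). Gja1 lies between 63.4 and 74.7 CPM in WWv and above 93 CPM in every WT library, and WT 2 lies at 7.07 CPM in Gja3 while the other WT libraries lie at 1.03 to 2.57 CPM.

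Gja4, which encodes Cx37, stood at 2.44, 3.45, 2.26, 2.89 and 2.33 CPM in WT 1 to 5 (ENSMUSG00000050234.7, chromosome 4, 127311421 to 127314039, minus strand). WWv 1 to 5 lay at 1.78, 2.95, 3.68, 2.93 and 3.32 CPM. The groups overlapped almost wholly, with means of 2.68 ± 0.499 and 2.93 ± 0.716 CPM and a log2 fold change of 0.13 ± 0.19. Gja5, which encodes Cx40, was the lowest of the 7 (ENSMUSG00000057123.14, chromosome 3, 96904693 to 97077416, plus strand). It stood at 0.543, 1.85, 1.35, 0.762 and 0.705 CPM in WT 1 to 5. For WWv 1 to 5 the values were 1.03, 0.766, 0.722, 1.64 and 1.18 CPM. These values rest on 26 to 86 counts per library, and the 95% Wilson interval, which covers counting error only, ran from 0.370 to 0.795 CPM in WT 1 and from 1.50 to 2.29 CPM in WT 2. The log2 fold change was 0.04 ± 0.35, and its sign turned when WT 1, WT 4, WT 5, WWv 4 or WWv 5 was left out, so no direction can be given. Of the exon bases of Gja5, 165 overlap Gpr89 on the other strand, and since the strand setting of the counting was not given, reads there cannot be assigned to either gene.

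Markers of endothelium, where both of these connexins are best known, were present in the cultures. The summed CPM of 12 endothelial markers was 387 in WT 2, 107 to 246 in the WWv libraries and 104 to 128 in the WT libraries other than WT 2. Cdh5 lay between 19.8 and 107 CPM in WT and between 29.9 and 76.3 CPM in WWv, while Cldn5 stayed under 1 CPM in every library. Of the 11 endothelial markers tested, Erg was called, lower in WWv, and the other 10 did not pass. That is 9.09% called, against 28.2% of all tested genes (15.4% called lower). WT 2 was also the highest WT library for Gja4 and Gja5. Whether endothelial cells contributed to these 2 levels was not tested.

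Gja3 encodes Cx46 and had the largest difference of the 7 (ENSMUSG00000048582.7, chromosome 14, 57034460 to 57058100, minus strand; its upstream sequence is shown above). It stood at 2.57, 7.07, 2.55, 1.03 and 1.58 CPM in WT 1 to 5. Its values in WWv 1 to 5 were 11.3, 16.2, 13.6, 11.0 and 10.4 CPM. The groups did not overlap, and WT 2 lay between the other WT libraries and the WWv libraries. The means were 2.96 ± 2.39 and 12.5 ± 2.42 CPM, a log2 fold change of 2.08 ± 0.42. The size of that difference depended on WT 2: without it the other WT libraries averaged 1.93 ± 0.760 CPM and the difference was 6.46-fold (log2 2.69 ± 0.25). The call was kept in 10 of 10 fits that left out a library, again a description of a gene chosen by this contrast. The lowest value, in WT 4, rests on 54 counts (95% Wilson interval 0.788 to 1.34 CPM), and the highest, in WWv 2, on 699 (15.1 to 17.5 CPM). Markers of lens fibre cells, in which Cx46 is best known, were near 0: of 8 lens genes 7 stayed under 1 CPM in every library, Mip was at 0 in all 10, and the sum of the 8 was 1.21 to 2.27 CPM in WT and 1.01 to 1.51 CPM in WWv.

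WT 2 stood apart in proliferation genes as well. Of 10 such genes 6 rose in WWv (60% called, against 28.2% of all tested genes, of which 12.8% were higher), led by the cyclin genes Ccne2 (log2 fold change 0.93 ± 0.09, edgeR adjusted p = 0.000247) and Ccne1 (0.85 ± 0.10, adjusted p = 0.000446). Their summed CPM was 448 to 502 in WT libraries other than WT 2, 747 in WT 2 and 635 to 739 in WWv. WT 2 was the highest WT library both for that sum and for Gja3, and for Gja4, Gja5, Gjc1 and Panx1 as well. The part of proliferation in the difference of Gja3 was not tested.

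Gjb2 encodes Cx26 and begins 46.6 kb from the start of Gja3 (ENSMUSG00000046352.7, chromosome 14, 57098600 to 57104702, minus strand). It stood at 1.44, 1.38, 2.09, 1.83 and 3.08 CPM in WT 1 to 5. The values of WWv 1 to 5 were 2.18, 3.04, 4.57, 2.73 and 2.46 CPM. WT 5 lay within the WWv range and the other 4 WT libraries below it. The means were 1.96 ± 0.688 and 3.00 ± 0.935 CPM and the log2 fold change 0.61 ± 0.26, which did not pass the threshold with all libraries and passed it without WT 5 (0.83). Of 8 epithelial markers 6 stayed under 1 CPM in every library (Epcam, Cdh1, Krt5, Krt14, Krt8 and Cldn4). Their sum, carried by Krt18 and Krt19, was 41.2 CPM in WT 2, 11.6 to 30.7 CPM in WWv and 8.19 to 15.0 CPM in the remaining WT libraries, while Gjb2 was lowest of the WT libraries in WT 2.

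Panx1 was the only pannexin gene that passed the filter on low counts (ENSMUSG00000031934.14, chromosome 9, 15002128 to 15045478, minus strand). It stood at 6.03, 8.52, 7.92, 7.50 and 6.37 CPM in WT 1 to 5. Across WWv 1 to 5 it reached 8.97, 7.85, 8.66, 8.27 and 7.77 CPM. WT 2 and WT 3 lay within the WWv range and the other WT libraries below it. The means were 7.27 ± 1.04 and 8.30 ± 0.516 CPM, the log2 fold change was 0.19 ± 0.10, and it passed the threshold only in the fit without WT 2 (0.26). The other pannexin genes were near 0, with Panx2 at no more than 0.0417 CPM and Panx3 at no more than 0.180 CPM in any library.

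**Figure D2:**
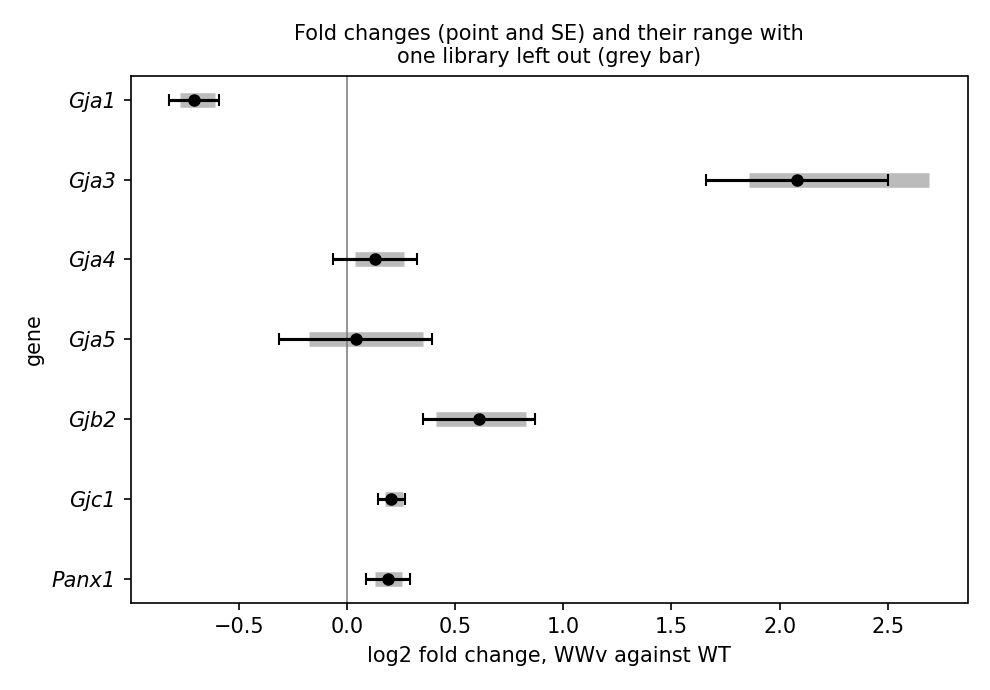
Log2 fold change of WWv against WT (horizontal axis) for the 7 members (points), with the SE (error bars) and the range of values when each library is left out in turn (grey bars). Gja1 stays between -0.77 and -0.61, Gja3 reaches from 1.86 to 2.69, and the grey bar of Gja5 crosses 0.

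Of the other 16 connexin and pannexin genes, 4 passed the filter on low counts. Of these 4, 1 was called (25%, against 28.2% of all tested genes). Gjb5, which encodes an epithelial connexin, stood at 6.62 ± 1.77 CPM in WT and 7.51 ± 0.823 CPM in WWv (adjusted p = 0.460, edgeR), a difference that did not pass the threshold. The remaining 12 genes stayed under 1 CPM in every library. Among them Gjb1, Gjd2 and Gje1 had no count in any of the 10 libraries, which at 3 counts allows a level of up to 0.0571 to 0.0722 CPM, depending on the library.

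Gja3 and Gjb2 are neighbours in the genome, together with Gjb6. The 5′ ends of Gjb2 and Gjb6 lie 46.6 and 75.5 kb from that of Gja3. Gja3 differed 4.22-fold between the groups. Gjb2 differed 1.53-fold, with overlapping groups, and did not pass the threshold. Gjb6 had no count in any WWv library and at most 0.0431 CPM in WT.

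Levels of the 7 members were set side by side per kb of exons, since longer transcripts give more reads. In WT, Gja1 led at 11.2 ± 2.19 CPM per kb, and Gjc1 followed at 3.79 ± 0.330, both without overlap with the gene below. Then came Gja4 (1.59 ± 0.296), Panx1 (1.21 ± 0.173), Gja3 (0.999 ± 0.807) and Gjb2 (0.816 ± 0.286), which overlapped from each to the next. Gja5 was lowest of the members at 0.181 ± 0.0950, without overlap with Gjb2. In WWv, Gja1 again stood first (6.89 ± 0.442). Gja3 (4.21 ± 0.816) stood in the third place and did not differ from Gjc1 (4.37 ± 0.153) above it beyond the spread of the libraries, while Gja4 (1.74 ± 0.425) lay below it without overlap. Panx1 (1.38 ± 0.0856) and Gjb2 (1.25 ± 0.389) followed, each overlapping its neighbour, and Gja5 (0.186 ± 0.0644) came last.

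The distance between Gja1 and the other members depends on the length used, since its annotated exons add up to 10257 bases while its longest transcript has 3889. Per kb of longest transcript Gja1 stood at 29.7 ± 5.78 in WT and 18.2 ± 1.17 in WWv, above the other 6 members in both groups without overlap. On that scale Gjc1 (6.41 ± 0.225) and Gja3 (4.51 ± 0.874) no longer overlapped in WWv. The length cancels in the difference of 1 gene between the groups.

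**Figure D3:**
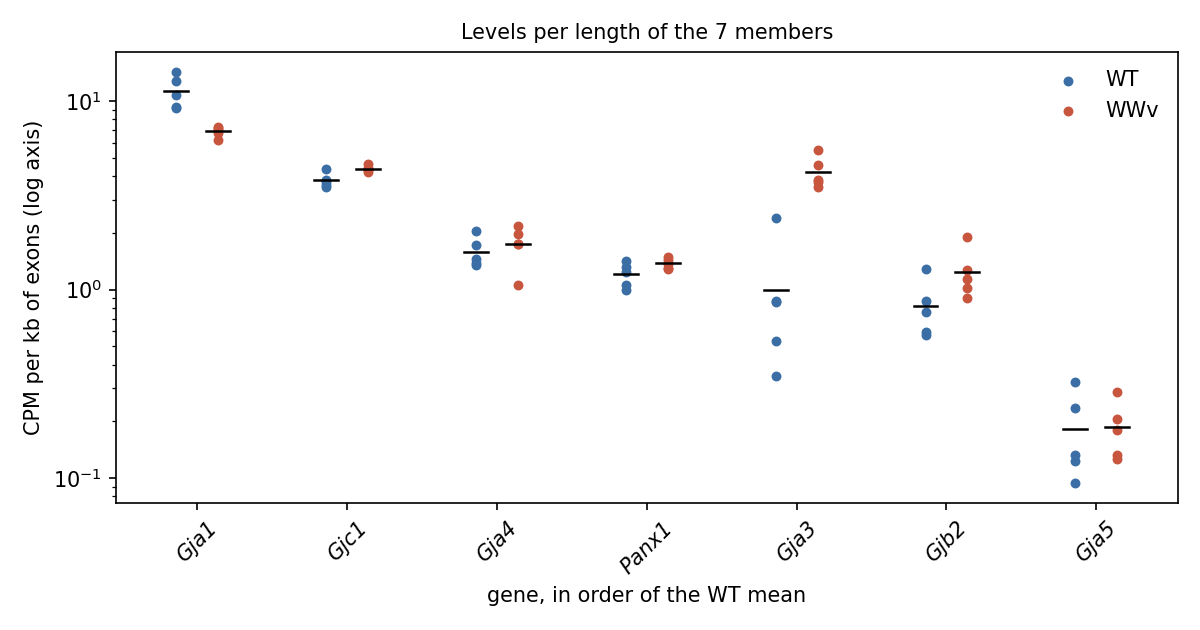
Level in CPM per kb of exons (vertical log axis) of the 7 members, in order of the WT mean; points are the 5 WT and 5 WWv libraries and black lines the group means. Gja3 moves from 0.999 CPM per kb in WT, beside Panx1 and Gjb2, to 4.21 in WWv, beside Gjc1.

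As a share of the summed level of the 6 member connexins, per kb of exons, Gja1 made up 67.6, 49.1, 60.7, 66.3 and 57.0% in WT 1 to 5. In WWv 1 to 5 its share was 41.8, 34.3, 32.0, 37.8 and 39.6%. Gja3 made up 4.12, 12.6, 4.84, 1.81 and 3.31% in WT 1 to 5 and 21.9, 27.6, 23.7, 20.1 and 19.2% in WWv 1 to 5. Neither share overlapped between the groups, and WT 2 had both the lowest share of Gja1 and the highest of Gja3 among the WT libraries. Gjc1 held 18.1 to 22.9% in WT and 22.2 to 25.0% in WWv, so its shares overlapped. The summed level itself was 18.6 ± 1.83 CPM per kb in WT and 18.7 ± 0.943 in WWv, with overlapping libraries. Per kb of longest transcript the share of Gja1 was 75.7 ± 5.71% in WT and 56.2 ± 3.85% in WWv. That of Gja3 was 2.81 ± 2.39% and 13.9 ± 2.48%, so for these genes the 2 lengths gave different shares and the same direction. On that length Gjc1 held 12.1 to 17.4% in WT and 19.3 to 20.8% in WWv, without overlap. The summed level was then 39.0 ± 5.13 in WT and 32.4 ± 0.684 in WWv, with overlapping libraries. Whether the sum was alike in the groups thus depends on the length used. These shares restate the differences of the members and are a description.

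**Figure D4:**
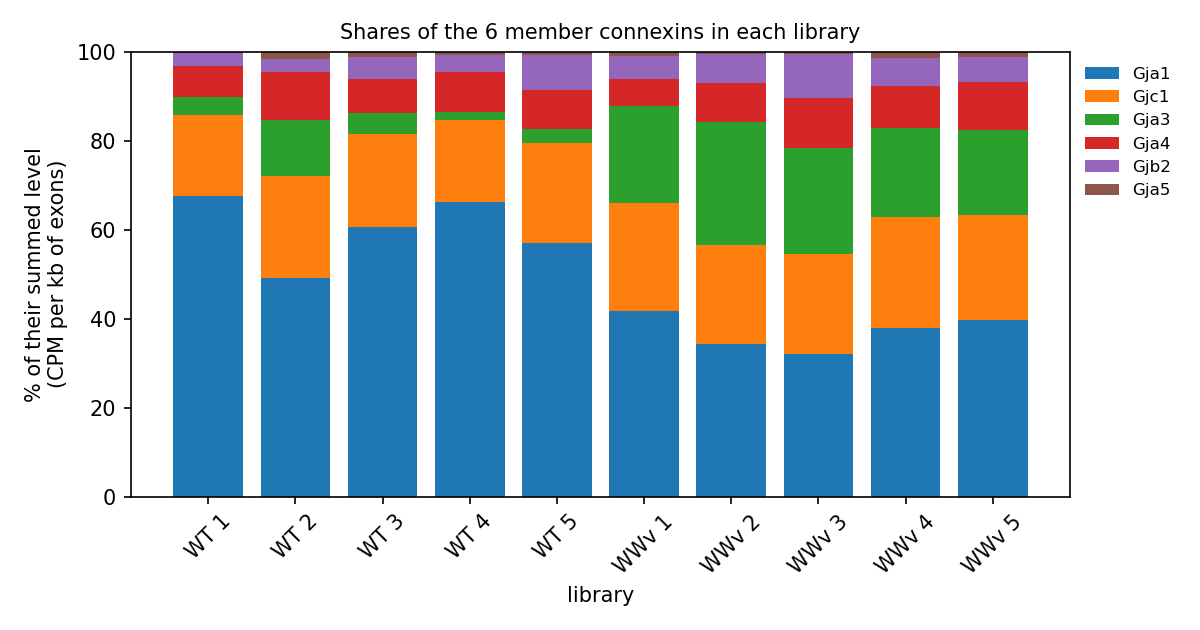
Shares of the 6 member connexin genes in their summed level (CPM per kb of exons) in each library, in percent (stacked bars from 0 to 100). Gja1 takes 49.1 to 67.6% in WT and 32.0 to 41.8% in WWv, and Gja3 takes 19.2 to 27.6% in WWv and 12.6% in WT 2.

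Connexins are anchored, phosphorylated, recycled and degraded by partner proteins. Of 38 such partner genes 37 were tested, and 11 rose and 1 fell (32.4% called, against 28.2% of all tested genes), with a median log2 fold change of 0.13 against -0.01 over all tested genes. The largest rises were those of the caveolins, scaffolds of the membrane pits in which Cx43 is found: Cav2 rose from 26.6 ± 5.18 to 43.0 ± 5.28 CPM (log2 fold change 0.69 ± 0.13, edgeR adjusted p = 0.00393) and Cav1 from 438 ± 97.7 to 702 ± 74.5 CPM (0.68 ± 0.14, adjusted p = 0.00657), both without overlap. Prkce, a protein kinase C known to phosphorylate Cx43, rose from 10.9 ± 0.609 to 14.9 ± 1.00 CPM (0.45 ± 0.06, adjusted p = 0.00124). Among the others that rose were Dlg1 (a junction scaffold), Cnst (consortin, a trafficking receptor for connexins), Mapre1 (a microtubule-end protein), Src (a kinase that acts on Cx43), and Tsg101 and Sqstm1 (which act in sorting and autophagy of proteins). Trim21, a ubiquitin ligase, fell by 0.50 ± 0.17 on the log2 scale (edgeR adjusted p = 0.0462), with overlapping groups. That call was kept in 2 of 10 fits that left out a library. Tjp1 (ZO-1, which binds the tail of Cx43) stood at 99.5 CPM in WT 2 and at 100 ± 3.23 and 102 ± 4.82 CPM in the groups (adjusted p = 0.689, edgeR). Without WT 2 the fit called 20 of the partners, and 7127 of 15423 over all tested genes.

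Purinergic genes act on the ATP that pannexin and connexin hemichannels release. Of 29 such genes 18 were tested, 3 fell and 1 rose (22.2% called, against 28.2%), with a median log2 fold change of 0.05. Alpl, an ectophosphatase that completes the breakdown of ATP to adenosine, fell from 9.65 ± 4.44 to 2.18 ± 0.999 CPM (log2 fold change -2.14 ± 0.47, edgeR adjusted p = 0.00780). Adora2a, the adenosine receptor that relaxes arteries, fell from 5.55 ± 2.65 to 1.41 ± 0.296 CPM (-1.98 ± 0.38, adjusted p = 0.00457). For both genes WT 2 lay inside the WWv range, at 1.88 and 1.42 CPM, and the other WT libraries lay above it. P2rx6, an ATP-gated channel, fell from 0.303 ± 0.0875 to 0.100 ± 0.0361 CPM (-1.56 ± 0.31, adjusted p = 0.00556), at a very low level and with 554 exon bases shared with Slc7a4 on the other strand. Enpp1, which cleaves ATP to AMP and pyrophosphate, rose from 19.6 ± 4.23 to 31.9 ± 5.79 CPM (0.71 ± 0.15, adjusted p = 0.00720). The fit without WT 2 called 8 of the 18 (7127 of 15423 over all tested genes). That without WWv 1 called 7 (4110 of 15476).

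Among 12 transcription factor genes known to control connexin genes, 11 were tested and 1 fell (9.09% called, against 28.2% of all tested genes). The median log2 fold change was 0.23, against -0.01 over all tested genes. The gene that fell was Sp3, which binds GC boxes such as those shown for Gjb2. It went from 74.9 ± 5.20 to 66.2 ± 4.17 CPM (log2 fold change -0.18 ± 0.06, edgeR adjusted p = 0.0497). The call was kept in 2 of 10 fits that left out a library, without WT 2 and without WWv 5. The fit without WT 2 called 3 of the 11 (7127 of 15423 over all tested genes). WT 2 was the lowest WT library for Sp3, at 66.3 CPM.

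The genes around the members were called at the share of all genes. Of 78 tested genes within 500 kb of a member, 6 rose and 16 fell (28.2% called, against 28.2% of all tested genes), with a median log2 fold change of -0.04. Without WT 2 the fit called 36 of them (7127 of 15423 over all tested genes). Without WWv 2 it called 13 (3013 of 15487) and without WWv 3 it called 14 (3078 of 15496). The largest changes were falls: Ankrd35 near Gja5 (log2 fold change -1.33 ± 0.39, edgeR adjusted p = 0.0263), Ccdc103 near Gjc1 (-1.01 ± 0.31, adjusted p = 0.0317), Gm12940 near Gja4 (-0.94 ± 0.14, adjusted p = 0.00115) and Adam11, 19.3 kb from Gjc1 (-0.84 ± 0.16, adjusted p = 0.00405). Ankrd35 and Ccdc103 had overlapping groups and means under 1 CPM, and Gm12940 shares 1709 exon bases with Zmym1 and 216 with Sfpq. Around Gja3, 3 of 11 tested genes were called, Mphosph8 higher (0.31 ± 0.05) and Parp4 (-0.23 ± 0.08) and the lincRNA Gm16973 (-0.44 ± 0.13) lower, named after their values were seen. The 3 tested genes around Gja1 had adjusted p values from 0.101 to 0.981 (edgeR).

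The genes most like each member were found by the correlation of log2 CPM across the 10 libraries after each group was centred on its own mean, among 11846 candidates; the points share the libraries and their depth, and so many candidates give high values. Each correlation is also given over the 9 libraries left without WT 2. For Gja1 the nearest were Napb (r = 0.934, without WT 2 0.918), Zfp954 (0.931 and 0.910) and Tigd5 (0.924 and 0.954). For Gja3 they were Smurf1 (0.985 and 0.954), Nacc1 (0.985 and 0.967) and Eif4g1 (0.984 and 0.951). For Gjc1 they were Anxa5 (0.988 and 0.969), Utp6 (0.986 and 0.943) and Fignl1 (0.985 and 0.938). Among the genes nearest to Panx1 were Usp38 (0.944 and 0.913) and Fam234b (0.929 and 0.917). For Gjb2 the nearest were Lrp11 (0.965 and 0.958), Slc43a1 (0.958 and 0.959) and Asic3 (0.944 and 0.940). Gja4 varied with Ptbp3 (0.920 and 0.958), Gnb4 (0.920 and 0.900) and Kctd1 (0.909 and 0.885), and Gja5 with Blm (0.935 and 0.955), Pigw (0.895 and 0.823) and Mcph1 (0.888 and 0.830). No gene is in the list of more than 1 member.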

How the data were processed

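The deposited values are raw counts, whole numbers per versioned Ensembl mouse gene in each of 10 libraries. Per the labels' protocols, the Omega EZNA kit gave the RNA and Nugen's Universal Plus mRNA-Seq kit the libraries. Per the submitters' processing notes, bcl2fastq 2.17, Trim Galore 0.4.3, STAR 2.5.2a and the build mm10 were used. Counting tool, strand setting and annotation release: not given in the sources used here, so genes that share exon bases with another gene are named as such.

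Symbols, positions and lengths came from GENCODE M21 (GRCm38, the assembly of mm10), in which 54409 of 54446 IDs matched without their version. The 37 others held 0.0026% of the counts. Promoter windows are RefSeq's.

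WWv was compared with WT with edgeR's quasi-likelihood test (version 4.0.16, under R 4.3.3), with TMM scaling, filterByExpr at a minimum count of 10 and Benjamini-Hochberg adjustment over the 15181 tested genes. SEs are the absolute log2 fold change over the square root of F. CPM values are TMM-scaled, and totals were 42040255 to 53863661 counts. At 3 counts the smallest level that could be told from 0 was 0.0571 CPM or more. The procedure was tested on simulated data.

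Named were the 7 members, Kit, the other connexin and pannexin genes past the filter, and from each list the up to 4 called genes with the largest change. For each member the 3 most correlated named genes with a mean of at least 1 CPM were added. The members and lists were chosen with earlier results of these data known. Tjp1, Jun, Fos, Clec3b, the other partner genes that rose and the genes around Gja1 and Gja3 were named after their values were seen. Some genes that these rules name are not reported here.

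Alternatives were RLE, upper quartile and library-size scaling, no low-count filter, 1 CPM in 5 libraries, DESeq2 1.42.0, limma-voom (limma 3.58.1), the replicate number as a block, an adjusted p under 0.01, each library left out, the longest transcript as length and a window of 250 kb. Likeness without WT 2 was added after seeing the data.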

Additional observations from a re-analysis of the deposited data

Results flagged for a closer look

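Gja3 in WT 2 stood at 7.07 CPM, apart from the other WT libraries at 1.03 to 2.57 CPM. The gap to the nearest of them was 0.745 of the range of the group, above the critical value for 5 samples. It was the only such value among the members' groups, and chance flags about 1 group in 20.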

How the results depend on the processing

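The 25 gene fold changes had 446 values under the alternatives, of which 386 kept direction and call, 50 lost the call, 4 gained it and 6 changed sign. The 6 are all of Gja5: -0.050 with library sizes only, -0.12 without WT 1, -0.06 without WT 4, -0.07 without WT 5, -0.17 without WWv 4 and -0.00997 without WWv 5, while without WT 2 it was 0.35. Gja1 and Gja3 kept their calls under every alternative, which is no independent support, since this contrast chose the members. Gjc1 lost its call with upper quartile scaling (0.18), library sizes only (0.12), no low-count filter (0.21) and in 8 of 10 fits that left out a library.

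Leaving out each library gave 3013 to 7127 genes called, 2 to 4 members, 1 to 2 other connexins, 9 to 20 partners, 4 to 8 purinergic genes, 0 to 3 regulators and 13 to 36 neighbours. At an adjusted p under 0.01 the counts were 1827 genes, 2 members, 0 other connexins, 0 regulators and 7 neighbours. The fit with 1 CPM in 5 libraries called 0 other connexins. No low-count filter, DESeq2 and limma-voom each called 0 regulators. At an unadjusted p under 0.05 edgeR had 3 of 11 regulators and 2 of 4 other connexins, beside 6236 of all 15181 tested genes. The window of 250 kb held 9 called neighbours. It holds fewer tested genes than the 500 kb window (22 of 78 called), so the 2 counts cannot be compared. Otherwise the causes were not tested. Per kb of longest transcript the levels moved most for Gja1 (29.7 in WT and 18.2 in WWv), Gja5 (0.284 and 0.291) and Gjc1 (5.56 and 6.41).

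Replicate numbers did not pair the libraries: same-numbered deviations correlated at -0.09 to 0.31, and 1 of 5 numbers correlated best with its own. With the replicate block 3636 genes, 2 members, 0 other connexins, 0 regulators (Sp3 -0.18, adjusted p = 0.101 by edgeR) and 18 neighbours were called, and Gjc1 was at 0.21 without its call. Depth limits Gja5, Gjb2 and Gja4, which rest on 26 to 190 counts per library.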
